A study of Mus musculus with 6 samples.

Results

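The chemokine and cytokine genes described here are Ccl2, Ccl7, Cxcl1, Cxcl5, Cxcl12, Il6, Lif, Csf1, Tslp and Il33, secreted signals that cultured muscle cells can make. They were chosen by name, with earlier results of these data known, and all 10 had a row among the 32973 rows of the deposited expression table. The table holds FPKM (fragment counts scaled by transcript length and library size) for 6 libraries of primary mouse muscle stem cells, the cells that repair skeletal muscle. All 6 came from sorted cells grown for 3 days on collagen in medium with 20% serum and 5 ng/ml basic fibroblast growth factor, and all carried the Med23flox/flox alleles. The 3 Ctrl libraries carried these alleles alone, and the 3 Med23KO libraries also carried Pax7CreERT2, a Cre recombinase driven by Pax7, which marks the stem cells. The labels give the treatment as none for every library, and give no age and no time at which Cre was activated. Only knockout cells carried Cre, so its own effect and that of the loss of Med23 cannot be told apart. The labels do not tie the replicates to different mice or cultures. A p-value here therefore reflects how far 3 libraries of a group vary, and that variation may be technical.

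Chemokines are small secreted proteins that draw leukocytes along a gradient by binding G protein-coupled receptors, and cytokines are secreted proteins that set the state of nearby cells. In injured muscle, monocytes are drawn in through the receptor Ccr2, whose ligands include Ccl2 and Ccl7, and neutrophils through Cxcr2, whose ligands include Cxcl1 and Cxcl5. Cxcl12 binds Cxcr4 and is taken up by the scavenging receptor Ackr3, and Csf1 is the growth factor of macrophages. Il6 and Lif both signal through the shared receptor chain Il6st to JAK kinases and the transcription factor Stat3, and Lif is known to act on myoblasts. Tslp and Il33 are alarm signals of barrier and stromal cells.

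Transcripts of the targeted gene stood at 47.1% of the control mean in knockout cells. Med23, which encodes a subunit of the Mediator complex, had 10.4, 11.7 and 10.2 FPKM in Ctrl replicates 1, 2 and 3 and 5.10, 5.86 and 4.23 FPKM in Med23KO replicates 1, 2 and 3 (log2 fold change -0.96, SE 0.133, adjusted p in limma = 0.0197). All fold changes here are differences of log2(FPKM + 1), which understate the change of low genes. With 1 library left out the adjusted p for Med23 ran from 0.00862 to 0.108 and was under 0.05 only without Med23KO replicate 3. The myogenic markers Pax7 (32.4 to 60.3 FPKM), Myod1 (551 to 1170 FPKM) and Des (207 to 439 FPKM) were high in all 6 libraries. Of the markers of leukocytes and macrophages, Ptprc was at 0 to 0.0896 FPKM, Adgre1 at 0 to 0.305 FPKM and Csf1r at 0.203 to 0.660 FPKM, while the lysozyme gene Lyz2 reached 9.40 to 35.0 FPKM.

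The order of levels ran from the macrophage growth factor to the classical inflammatory cytokine. By the mean over 6 libraries, Csf1 was highest at 204 FPKM, followed by Cxcl12 at 42.7, Ccl2 at 14.5, Ccl7 at 6.94, Lif at 4.22, Tslp at 2.18, Cxcl5 at 1.29, Cxcl1 at 1.19, Il33 at 0.461 and Il6 at 0.124 FPKM. The 6 values of Csf1 lay above those of Cxcl12, and those of Cxcl12 above those of Ccl2, without overlap. Ccl7 and Lif also did not overlap, by a small margin (lowest Ccl7 value 5.97, highest Lif value 5.77 FPKM). The other neighbours in this order overlapped. FPKM are scaled by transcript length, so levels of different genes can be set side by side.

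**Figure D1:**
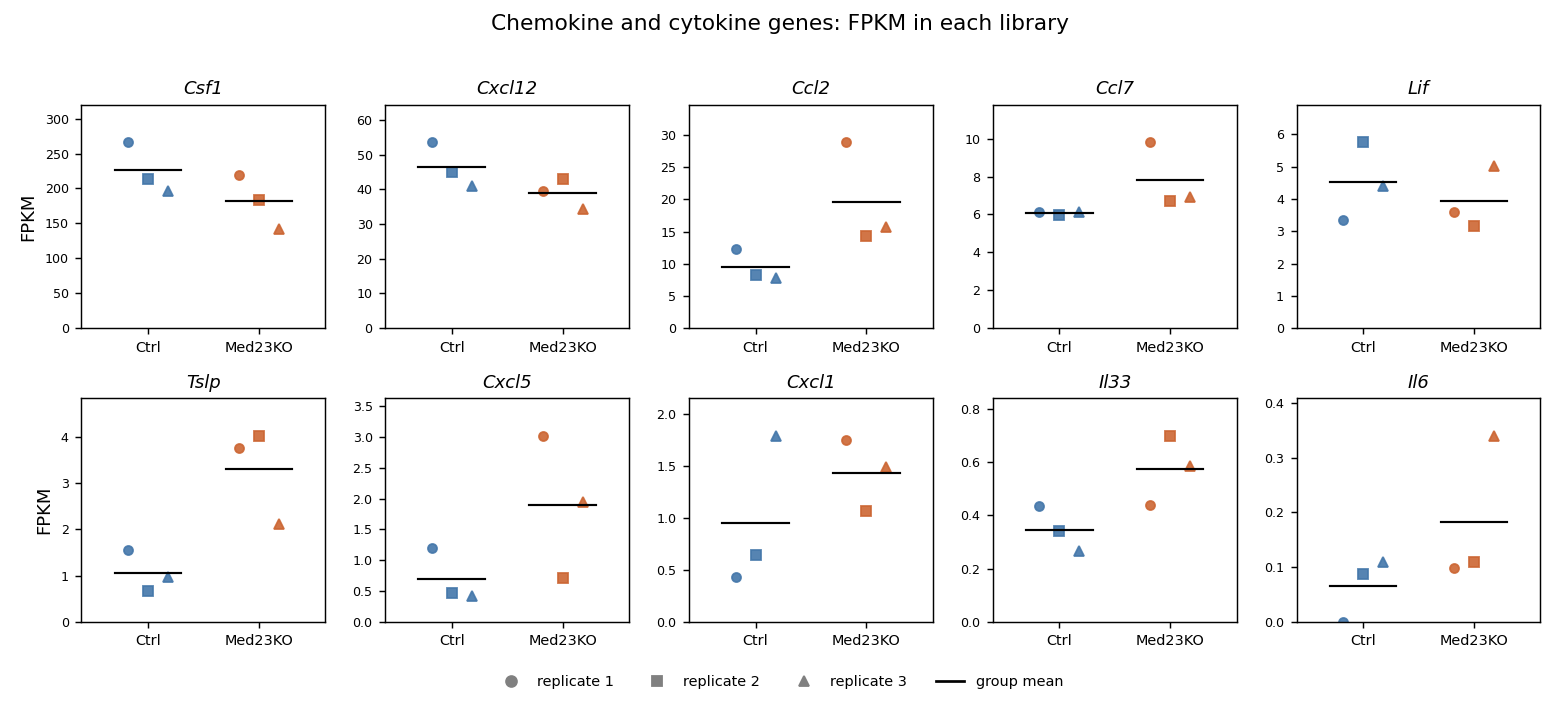
FPKM of each of the 10 genes (vertical axes start at 0 and differ between panels) in the 3 Ctrl and 3 Med23KO libraries, with the group mean as a line. For Ccl2, Ccl7, Tslp and Il33 the lowest knockout point lies above the highest control point, and for the other 6 genes the groups overlap.

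NF-kB, a transcription factor family switched on by inflammatory signals, is known to bind kappaB motifs in promoters of such genes. The bases before the start of 4 members are shown here: Il6, Cxcl1 and Csf1 because they share this motif at very different levels, and Cxcl12 as an abundant member without it. RefSeq windows (GRCm38.p6) were found for 6 of the 10 genes, with none for Ccl2, Ccl7, Cxcl5 and Tslp. The 250 bases before the RefSeq start are printed 5′ to 3′ on the strand of the gene, and capitals mark matches to the kappaB consensus of NF-kB in Il6, Cxcl1 and Csf1 and matches to the GC box (GGGCGG on either strand) in Cxcl12. The windows are chr5:30012864-30013113 (plus strand) for Il6, chr5:90890995-90891244 (plus strand) for Cxcl1, chr3:107760470-107760719 (minus strand) for Csf1 and chr6:117168285-117168534 (plus strand) for Cxcl12.
Il6: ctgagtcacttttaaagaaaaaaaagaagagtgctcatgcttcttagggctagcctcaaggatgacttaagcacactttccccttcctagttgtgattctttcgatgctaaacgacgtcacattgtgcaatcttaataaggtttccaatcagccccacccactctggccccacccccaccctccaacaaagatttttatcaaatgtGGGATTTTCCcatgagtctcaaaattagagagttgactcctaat
Cxcl1: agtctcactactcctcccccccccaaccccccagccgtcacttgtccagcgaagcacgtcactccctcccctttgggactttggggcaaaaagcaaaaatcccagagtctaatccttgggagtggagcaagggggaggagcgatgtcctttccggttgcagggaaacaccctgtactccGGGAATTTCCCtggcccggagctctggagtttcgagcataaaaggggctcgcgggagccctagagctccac
Csf1: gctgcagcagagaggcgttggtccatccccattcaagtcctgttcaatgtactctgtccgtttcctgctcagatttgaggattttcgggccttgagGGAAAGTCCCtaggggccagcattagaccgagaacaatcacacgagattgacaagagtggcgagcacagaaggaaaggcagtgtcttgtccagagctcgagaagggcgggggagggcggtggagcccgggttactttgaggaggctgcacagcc
Cxcl12: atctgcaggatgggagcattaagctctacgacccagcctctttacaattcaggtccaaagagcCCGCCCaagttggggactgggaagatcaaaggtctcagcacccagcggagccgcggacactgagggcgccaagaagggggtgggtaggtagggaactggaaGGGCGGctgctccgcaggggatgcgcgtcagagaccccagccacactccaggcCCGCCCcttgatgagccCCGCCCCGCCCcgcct

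The kappaB match of Il6 started 44 bases before the start, and the 2 matches of Cxcl1, which overlap and lie on opposite strands, began 71 and 70 bases before it. In Csf1 the match lay on the opposite strand, 154 bases before the start. Lif, not printed, held 1 match 178 bases before its start, and the 2 windows of Il33 held none. A kappaB match on either strand stood in 7.25% of 32851 RefSeq promoter windows of the same length. Il6 with this match had at most 0.340 FPKM, Cxcl1 at most 1.79 FPKM, Lif at most 5.77 FPKM and Csf1 at least 142 FPKM, so genes with a match spanned nearly the whole range of levels. The window of Cxcl12 held no kappaB match and 5 GC box matches, 2 of which overlap by 1 base. A GC box match stood in 32.7% of windows, and the Csf1 window held 2, left in lower case. The Il6 window also held 1 AP-1 match (TGANTCA, found in 6.75% of windows), 249 bases before the start, and 1 C/EBP match (TTNNGNAA, in 36.8% of windows), 128 bases before it.

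None of the members passed the test between the groups. The test was limma on log2(FPKM + 1) with Benjamini-Hochberg adjustment over the 12336 genes whose mean reached 1 FPKM, and 2.91% of those genes were called at an adjusted p under 0.05 (184 or 1.49% higher and 175 or 1.42% lower, and 363 and 205 with median scaling). Il33 and Il6 were below that mean and were not tested, and 0 of the other 8 were called. At an unadjusted p under 0.05 there were 2 of 8, Ccl2 and Tslp, against 19.7% of all tested genes. The authors' deposited table called Ccl2 and Cxcl5 higher by its q-values, 2 of these 8, against 15.6% of the tested genes. The 3 knockout values lay wholly above the 3 control values for Ccl2, Ccl7 and Tslp, 3 of 8, and groups did not overlap in 24.7% of tested genes (14.7% lower, the rest higher). Fold changes were above 0 for 5 of the 8 and below 0 for 3, with a median of 0.33 (log2), against -0.03 over all tested genes.

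**Figure D2:**
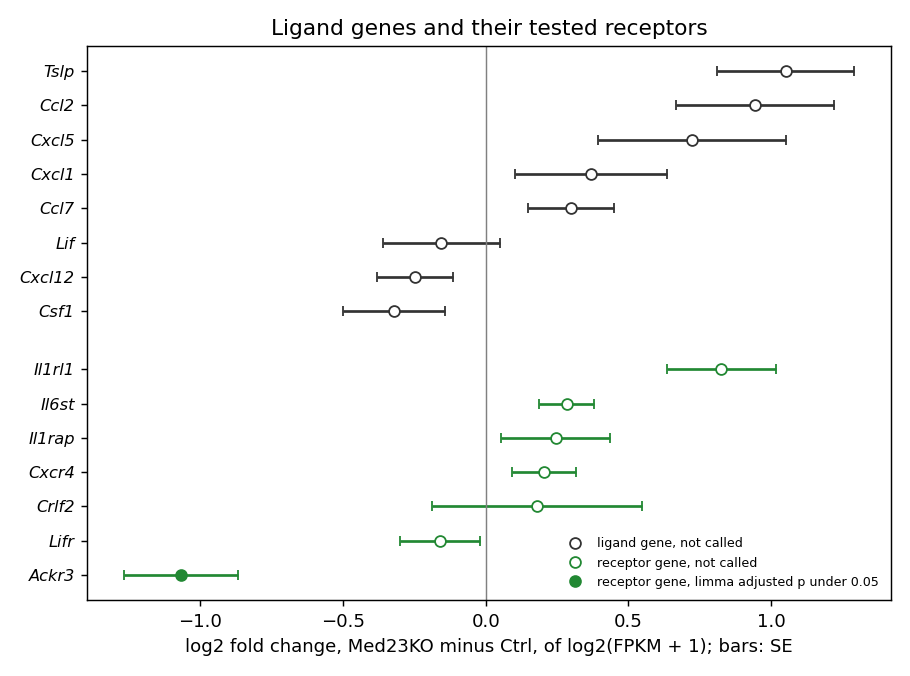
Log2 fold change, Med23KO minus Ctrl, of log2(FPKM + 1) with its standard error for the 8 tested ligand genes and the 7 tested genes of their receptors. Filled points passed the limma test. Tslp and Ccl2 have the largest positive values among the ligands, and Ackr3, at -1.07, is the single filled point.

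Among the CC chemokines, Ccl2 had more transcript in each knockout library than in any control library, but its adjusted p missed the threshold. Ccl2 (chromosome 11, positions 82035571 to 82037453, plus strand, mm10) had 12.3, 8.19 and 7.81 FPKM in Ctrl replicates 1, 2 and 3 and 28.9, 14.4 and 15.6 FPKM in Med23KO replicates 1, 2 and 3. Med23KO replicate 1 stood well above the other knockout libraries, and the groups did not overlap. The means were 9.43 ± 2.48 FPKM in controls against 19.6 ± 8.06 FPKM in knockouts (SD, n = 3), a ratio of 2.08. The log2 fold change was 0.94 (SE 0.276, adjusted p in limma = 0.119). Without Med23KO replicate 1 it was 0.64, and over 14 alternative limma settings, leaving aside the replicate block, the adjusted p ran from 0.0147 to 0.352 and was past the threshold with library weights alone. The authors' deposited table gave Ccl2 a q of 0.000695. The annotation places Ccl2 inside Gm17268, a gene on the opposite strand, and whether reads were counted by strand is not given in the sources used here, so reads of the pair cannot be told apart with certainty.

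Ccl7, which binds the same receptor Ccr2, starts 10.14 kb beyond Ccl2 (chromosome 11, positions 82045712 to 82047525, plus strand). It had 6.11, 5.97 and 6.13 FPKM in the control replicates and 9.83, 6.69 and 6.90 FPKM in the knockout replicates. The controls were nearly equal, Med23KO replicate 1 was again highest, and the groups did not overlap. The log2 fold change was 0.30 (SE 0.151, adjusted p in limma = 0.336), and it was 0.14 without Med23KO replicate 1. The next gene of this cluster, the eotaxin gene Ccl11, had 0 to 0.990 FPKM, and Ccl12, Ccl8 and Ccl1 were listed at 0 in all 6 libraries. The receptor genes Ccr2 (0 to 0.0280 FPKM) and Ccr1 (at most 0.228 FPKM) were near 0, and Ccr3 was listed at 0 throughout.

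**Figure D3:**
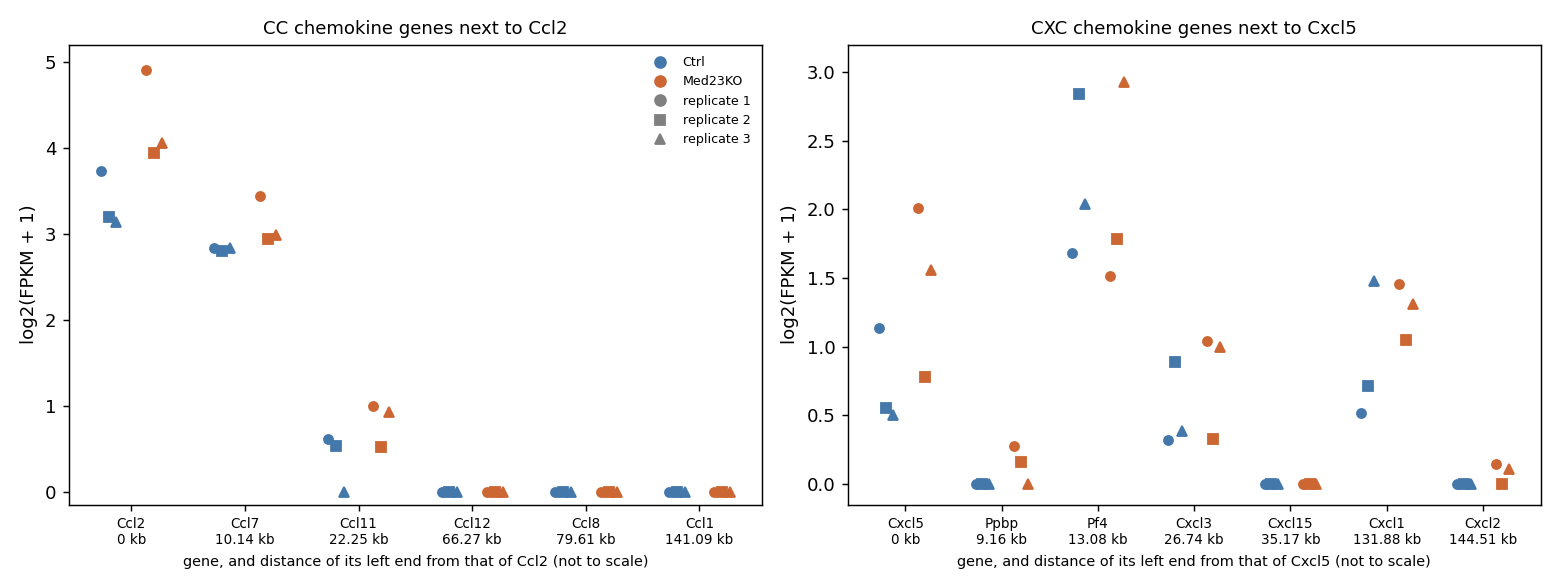
Values of log2(FPKM + 1) in each library for the chemokine genes within 200 kb of Ccl2 (left) and of Cxcl5 (right), in genomic order with the distance of each gene's left end. In the left cluster Ccl2 and Ccl7 carry nearly all the signal, and in the right one 4 genes, Cxcl5, Pf4, Cxcl3 and Cxcl1, are above 0 in every library.

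Markers of fibroblasts and fibro-adipogenic progenitors, stromal cells of muscle, had a higher summed level in each knockout library than in any control library. Summed over 16 genes, it was 326, 317 and 276 FPKM in Ctrl replicates 1, 2 and 3. In Med23KO replicates 1, 2 and 3 it was 504, 446 and 355 FPKM. The largest part of each sum was 1 gene, the collagen gene Col3a1. It had 182, 164 and 138 FPKM in the control replicates and 286, 256 and 183 FPKM in the knockout replicates. Of these 16, 13 were tested and 12 had a positive log2 fold change, with a median of 0.47, while 0 passed limma's test. Over all tested genes 5566 of 12336 were positive. At an unadjusted p under 0.05 there were 5 of 13 (38.5%, against 19.7% of all tested genes), and the authors' deposited table called 7 of 13 by its q-values, all higher (53.8%, against 15.6%). The sum and these counts include Tcf4, whose standing as a marker of these cells is uncertain. Tcf4 had 45.7 ± 0.907 FPKM in controls against 57.4 ± 6.81 FPKM in knockouts (SD, n = 3; unadjusted p in limma = 0.020, authors' q = 0.0296). The defining marker Pdgfra had 2.65, 1.28 and 1.70 FPKM in the control replicates and 3.78, 2.41 and 2.66 FPKM in the knockout replicates. Its groups overlapped (log2 fold change 0.47, SE 0.216, adjusted p in limma = 0.288), and the authors' deposited table gave a q of 0.00189. Pi16 and Dpp4 were at most 0.0352 and 0.0284 FPKM. The part of these cells in the chemokine values was not tested. In bulk RNA, more cells of a type and more RNA per cell cannot be told apart. The summed leukocyte markers were 20.1, 29.7 and 33.7 FPKM in control replicates and 19.2, 15.2 and 45.9 FPKM in knockout replicates. In this sum Med23KO replicates 1 and 2 were the lowest of the 6 and replicate 3 the highest. Lyz2 made up most of it, with 35.0 FPKM in Med23KO replicate 3. The median log2 difference from the control mean over 4 of these genes gave another order. It was -0.34, 0.12 and 0.22 in the control replicates and -0.27, -0.59 and 0.03 in the knockout replicates. Among the other cell type lists, limma called 0 of 5 tested endothelial and 0 of 2 tested Schwann cell genes. It called 1 of 4 tested pericyte and smooth muscle genes, against 2.91% of all tested genes. The called gene was Acta2, at 145 ± 13.4 FPKM in controls against 267 ± 21.5 FPKM in knockouts (SD, n = 3; log2 fold change 0.88, adjusted p in limma = 0.0137). Of these 4 pericyte and smooth muscle genes, 1 had a log2 fold change above 0 and 3 below 0, with a median of -0.30. Of 11 tested myogenic markers 0 were called in limma, and 2 had an unadjusted p under 0.05. The authors' deposited table called 5 of these 11 (3 higher and 2 lower), 1 of the 5 endothelial, 3 of the 4 pericyte and smooth muscle genes (1 higher and 2 lower), 0 of the 4 leukocyte genes and 1 of the 2 Schwann cell genes. The last was Ngfr, at 32.8 ± 17.5 FPKM in controls against 92.2 ± 59.6 FPKM in knockouts (SD, n = 3), where the groups overlapped.

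The CXC chemokines that bind Cxcr2 were low, with uneven values. Cxcl5 (chromosome 5, positions 90759360 to 90761624, plus strand) stood at 1.19, 0.464 and 0.414 FPKM in the control replicates and 3.02, 0.718 and 1.95 FPKM in the knockout replicates. The groups overlapped, because Med23KO replicate 2 lay below Ctrl replicate 1. The mean was 0.690 ± 0.437 FPKM in controls against 1.90 ± 1.15 FPKM in knockouts (SD, n = 3; log2 fold change 0.72, SE 0.329, adjusted p in limma = 0.283). The adjusted p was past the threshold with library weights (0.0447), and the authors' deposited table gave a q of 0.0183. Without Med23KO replicate 1 the mean of Cxcl5 fell under 1 FPKM and it could not be tested.

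Cxcl1, the neutrophil attractant 131.88 kb beyond Cxcl5 (chromosome 5, positions 90891241 to 90893115, plus strand), stood at 0.430, 0.642 and 1.79 FPKM in controls against 1.75, 1.07 and 1.49 FPKM in knockouts. Ctrl replicate 3 was the highest of all 6, and the groups overlapped (log2 fold change 0.37, SE 0.267, adjusted p in limma = 0.516). The log2 fold change was 0.18 without Ctrl replicate 1 and 0.66 without Ctrl replicate 3, with an adjusted p in limma of 0.785 and 0.204. Between these genes lie Pf4, the platelet factor gene, at 1.86 to 6.62 FPKM in the 6 libraries with both extremes among the knockouts, and Cxcl3, at 0.251 to 1.06 FPKM. Ppbp and Cxcl2 were listed at 0 in every control library and at no more than 0.208 and 0.106 FPKM in the knockouts. The receptor genes Cxcr2 (0 to 0.0619 FPKM) and Cxcr1 (0 in all 6) were at or near 0.

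Cxcl12 did not pass the test, and the gene of its scavenging receptor was lower in knockout cells. Cxcl12 (chromosome 6, positions 117168535 to 117181367, plus strand) stood at 53.7, 45.0 and 41.0 FPKM in the control replicates and 39.4, 43.1 and 34.2 FPKM in the knockout replicates. The groups overlapped, with Med23KO replicate 2 inside the control range. The means were 46.5 ± 6.50 and 38.9 ± 4.46 FPKM (SD, n = 3; log2 fold change -0.25, SE 0.134, adjusted p in limma = 0.363). Without Ctrl replicate 1 the log2 fold change of Cxcl12 was -0.14, and without Med23KO replicate 3 it was -0.16. Its signalling receptor Cxcr4 had 124, 125 and 110 FPKM in controls against 155, 139 and 122 FPKM in knockouts, which overlapped (log2 fold change 0.20, SE 0.113, adjusted p = 0.377).

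Ackr3, which takes up Cxcl12 and clears it, was the single called gene among the 7 tested receptors, against 2.91% of all tested genes. At an unadjusted p under 0.05 in limma there were 3 of 7 (42.9%, against 19.7% of all tested genes). Groups did not overlap in 3 of 7 (42.9%, against 24.7%). The authors' deposited table called 1 higher and 1 lower (28.6%, against 15.6%). Ackr3 had 51.0, 68.5 and 67.5 FPKM in Ctrl replicates 1, 2 and 3 and 21.9, 30.0 and 36.9 FPKM in Med23KO replicates 1, 2 and 3. Every knockout value lay below every control value, and the knockout mean was 47.5% of the control mean (log2 fold change -1.07, SE 0.200, adjusted p in limma = 0.0384). The call was lost when low genes were kept (adjusted p = 0.0829), with median scaling (0.0507), and in 5 of the 6 fits without 1 library, all but that without Med23KO replicate 3, with adjusted p from 0.00825 to 0.182. Its fold change stayed between -1.24 and -0.87 over the 6 fits without 1 library.

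**Figure D4:**
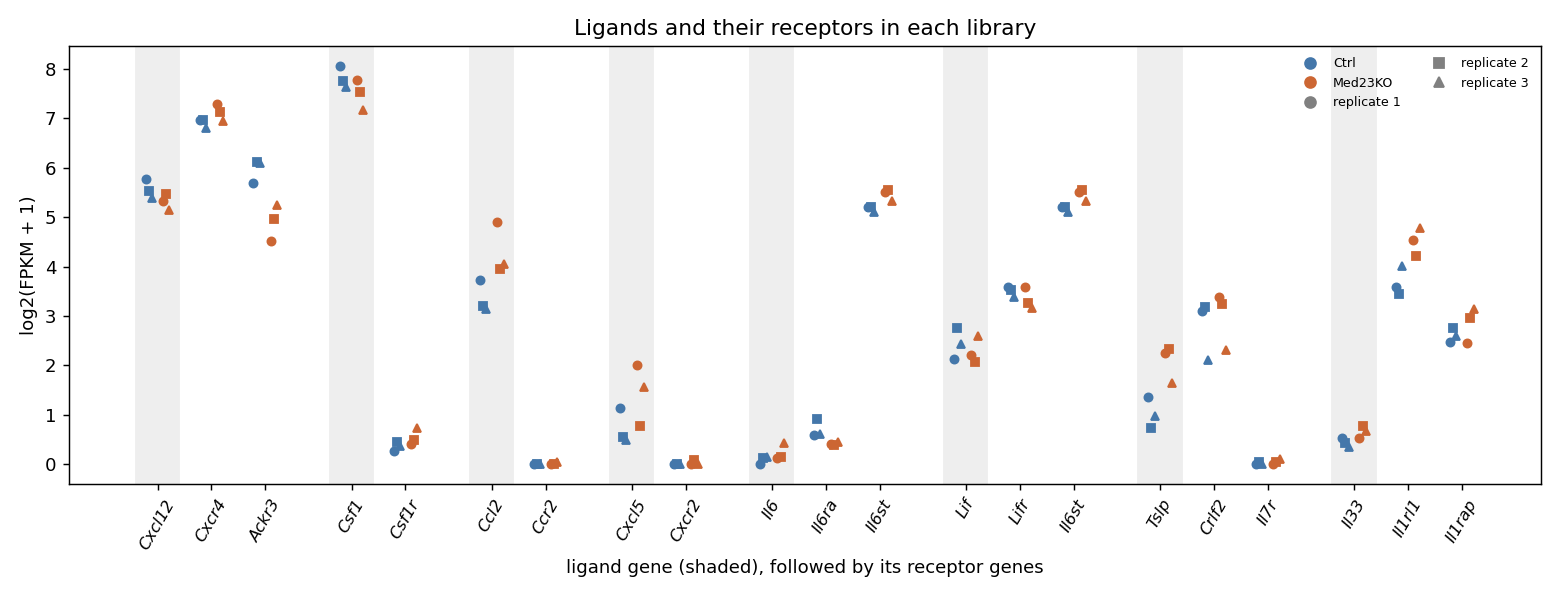
Values of log2(FPKM + 1) in each library for 8 ligand genes (shaded) and the genes of their receptors. Cxcl12 stands beside abundant Cxcr4 and Ackr3, and Il33 beside abundant Il1rl1, while Csf1, Ccl2 and Cxcl5 stand beside receptor genes near 0.

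Csf1 was the most abundant member and had a lower mean in the knockout, with overlapping groups. Csf1 (chromosome 3, positions 107741048 to 107760469, minus strand) stood at 267, 214 and 197 FPKM in the control replicates and 219, 184 and 142 FPKM in the knockout replicates. Med23KO replicate 1 lay above 2 of the 3 controls. The means were 226 ± 36.4 and 182 ± 38.3 FPKM (SD, n = 3; log2 fold change -0.32, SE 0.179, adjusted p in limma = 0.380). The log2 fold change was -0.20 without Ctrl replicate 1 and -0.16 without Med23KO replicate 3. Il34, the other ligand of the Csf1 receptor, had 7.16, 4.33 and 4.52 FPKM in controls against 2.47, 3.42 and 2.77 FPKM in knockouts. The groups of Il34 did not overlap, but it missed the threshold (log2 fold change -0.68, SE 0.194, adjusted p = 0.111), with q = 0.000695 in the authors' deposited table.

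The cytokines of the Il6st family among the members, Lif and Il6, differed in level. Lif was not called, and Il6 was too low to be tested. Lif (chromosome 11, positions 4257557 to 4272514, plus strand) stood at 3.36, 5.77 and 4.41 FPKM in controls against 3.60, 3.17 and 5.02 FPKM in knockouts, with wide overlap (log2 fold change -0.16, SE 0.206, adjusted p in limma = 0.743). With 1 library left out its log2 fold change ran from -0.31 (without Ctrl replicate 1) to 0.0041 (without Ctrl replicate 2). Il6 (chromosome 5, positions 30013114 to 30019981, plus strand) was listed at 0 in Ctrl replicate 1 and had 0.0866 and 0.109 FPKM in Ctrl replicates 2 and 3 and 0.0981, 0.109 and 0.340 FPKM in Med23KO replicates 1, 2 and 3. Without a filter on low values the log2 fold change was 0.15 (adjusted p in limma = 0.525).

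Both share a receptor chain that was abundant. Il6st had 35.9, 36.1 and 33.7 FPKM in controls against 44.4, 45.6 and 39.3 FPKM in knockouts, without overlap (log2 fold change 0.28, SE 0.0961, adjusted p in limma = 0.163). Lifr had 8.60 and 7.95 FPKM in Med23KO replicates 2 and 3 and 9.46 to 11.1 FPKM in the other 4 libraries (adjusted p = 0.597), and Il6ra, the specific chain for Il6, had 0.315 to 0.880 FPKM. Other ligands of the family were Clcf1, at 27.8 ± 4.75 FPKM in controls against 23.5 ± 4.40 FPKM in knockouts, and Ctf1, the cardiotrophin gene, at 5.72, 4.92 and 4.20 against 12.3, 11.0 and 4.42 FPKM. Ctf1 was high in 2 of 3 knockout libraries and missed the threshold (log2 fold change 0.69, adjusted p in limma = 0.298). Without Med23KO replicate 3 its log2 fold change was 1.10 and it passed (0.00664), and without Med23KO replicate 1 the log2 fold change was 0.45. It also passed with library weights (0.0416), and the authors' deposited table gave a q of 0.000695.

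A further list held JAK kinases, STAT factors and their feedback genes, with receptor chains such as Il11ra1 and other genes such as Cebpb and Cebpd. In this list limma called 1 of 18 tested genes higher and 0 lower. Over all tested genes 1.49% were called higher and 1.42% lower. Fold changes were above 0 for 13 of the 18 and below 0 for 5, with a median of 0.17 (log2), against -0.03 over all tested genes. At an unadjusted p under 0.05 there were 5 of 18 (27.8%, against 19.7% of all tested genes). The authors' deposited table called 6 of 18 by its q-values, all higher (33.3%, against 15.6%). Groups did not overlap in 3 of 18 (16.7%, against 24.7%). The called gene was Jak2, a kinase downstream of cytokine receptors, from 12.1, 12.7 and 14.4 FPKM to 20.9, 19.7 and 18.9 FPKM (log2 fold change 0.57, SE 0.106, adjusted p in limma = 0.0378). The groups did not overlap, and the call was lost without a filter on low values (0.0645) and in all fits without 1 library but that without Med23KO replicate 3 (adjusted p from 0.0229 to 0.185). Cebpd, Stat5a and Il11ra1 had log2 fold changes of 0.83, 0.66 and 0.57, with overlapping groups. They were not called (adjusted p in limma = 0.145, 0.247 and 0.200). Their q in the authors' deposited table was 0.00132, 0.000695 and 0.00913. The most abundant of this list, the stress-responsive factor gene Cebpb, had 27.4 to 52.4 FPKM in controls against 28.5 to 70.5 FPKM in knockouts (adjusted p = 0.824). Ptpn11, a phosphatase of receptor signalling, had 40.7 to 41.9 FPKM in controls against 37.3 to 39.8 FPKM in knockouts (log2 fold change -0.11, adjusted p = 0.530). The log2 fold changes of Jak1 and of the feedback gene Socs2 were 0.04 and -0.02 (SE 0.0870 and 0.0909), and that of Socs2 was above 0 with quantile normalization, median scaling or library weights. Stat3 had 19.9, 21.4 and 17.9 FPKM in controls against 33.2, 25.3 and 21.5 FPKM in knockouts, where Med23KO replicate 3 barely exceeded the highest control (log2 fold change 0.40, adjusted p = 0.235), with q = 0.00486 in the authors' deposited table.

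Of the alarm cytokines, Tslp had the lowest adjusted p of all members. Tslp, on chromosome 18, had 1.56, 0.670 and 0.964 FPKM in Ctrl replicates 1, 2 and 3 and 3.76, 4.03 and 2.11 FPKM in Med23KO replicates 1, 2 and 3. All knockout values lay above all control values, with Med23KO replicate 3 closest to them. The means were 1.06 ± 0.451 and 3.30 ± 1.04 FPKM (SD, n = 3), a ratio of 3.10, with a log2 fold change of 1.05 (SE 0.240, adjusted p in limma = 0.0654). The adjusted p was past the threshold without Med23KO replicate 3 (0.0122), with quantile normalization (0.0482), median scaling (0.0363) and library weights (0.00856), and it reached 0.260 without Med23KO replicate 2. The authors' deposited table did not call it (q = 0.561). A noncoding gene on the opposite strand, 4930455D15Rik, overlaps Tslp and was listed at 0 in all 6 libraries. Crlf2, the specific receptor chain, had 3.32 to 8.12 FPKM in controls against 3.96 to 9.42 FPKM in knockouts (adjusted p = 0.847), and the second chain Il7r had at most 0.0691 FPKM.

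Il33 (chromosome 19, positions 29925114 to 29960718, plus strand) stood at 0.435, 0.340 and 0.265 FPKM in controls against 0.440, 0.700 and 0.585 FPKM in knockouts. The groups did not overlap, but Med23KO replicate 1 exceeded Ctrl replicate 1 by little, and without a filter on low values the log2 fold change was 0.22 (adjusted p in limma = 0.295). Its receptor was far more abundant than the ligand. Il1rl1, the receptor chain specific for Il33, had 11.1, 9.90 and 15.1 FPKM in controls against 22.2, 17.6 and 26.3 FPKM in knockouts, without overlap (log2 fold change 0.83, SE 0.191, adjusted p = 0.0679). Over 14 alternative limma settings, leaving aside the replicate block, Il1rl1 was past the threshold with library weights alone (0.0112), and the authors' deposited table gave q = 0.000695. The partner chain Il1rap had 4.53 to 5.72 FPKM in controls against 4.47 to 7.79 FPKM in knockouts (adjusted p = 0.549).

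**Figure D5:**
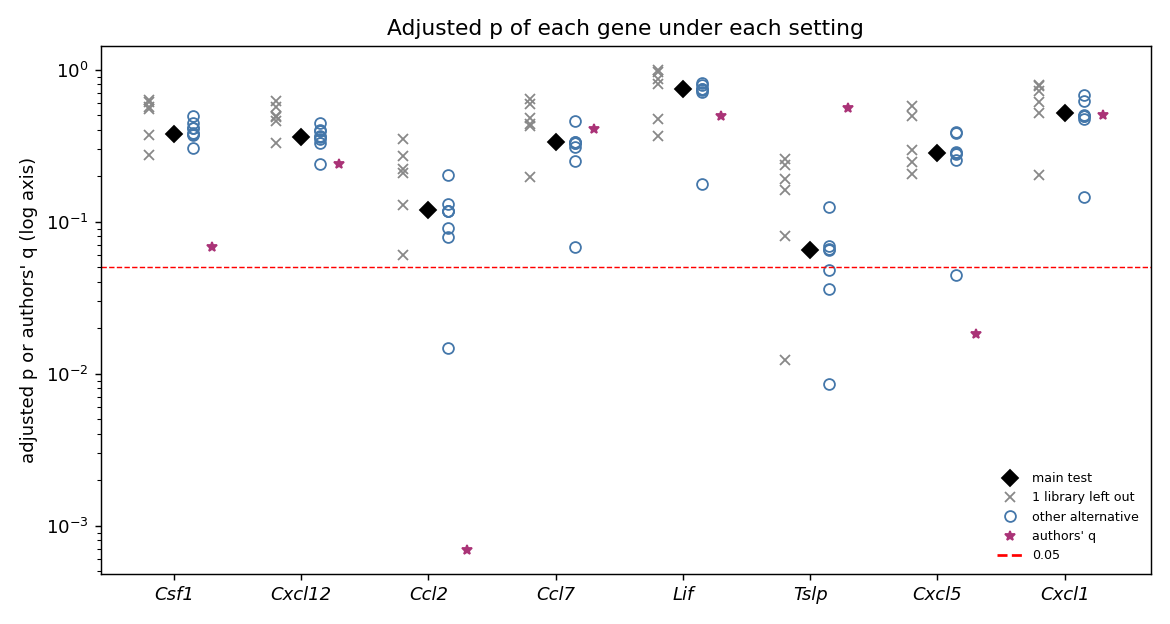
Adjusted p (log axis) of the 8 tested members in the main test, in 5 or 6 fits without 1 library, under other alternatives, and as the q of the authors' deposited table, with a dashed line at 0.05 (the replicate block is not shown). Tslp, Ccl2 and Cxcl5 cross the line under some settings, and the other 5 lie above it in all settings shown.

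Most other ligands of these families were listed at 0 or low. Of 29 other chemokine genes, 11 were listed at 0 in all 6 libraries, 6 were tested and 0 were called in limma. At an unadjusted p under 0.05 in limma there was 1 of 6 (Ccl5, 16.7%, against 19.7% of all tested genes). The authors' deposited table called 1 (Cx3cl1, 16.7%, against 15.6%), and groups did not overlap in 1 of 6 (16.7%, against 24.7%). Cx3cl1, the membrane-bound chemokine fractalkine, was the highest, at 7.65 ± 0.915 FPKM in controls against 5.61 ± 1.79 FPKM in knockouts (SD, n = 3; adjusted p = 0.329). Ccl5 was listed at 0 in Ctrl replicates 2 and 3, had 1.71 FPKM in Ctrl replicate 1, and had 3.59, 6.63 and 2.10 FPKM in the knockouts (adjusted p = 0.0891). It passed without Med23KO replicate 3 (0.0298) and with library weights (0.0137), and no fold is given because 2 controls are at 0. Cxcl14 and Ccl27a, chemokines of epithelia, had means of 4.86 ± 3.38 and 2.25 ± 0.686 FPKM in Ctrl and 4.69 ± 3.52 and 2.72 ± 1.39 FPKM in Med23KO, with overlap. Of 38 other cytokine genes, 12 were listed at 0 throughout, 9 were tested and 0 were called. The unadjusted p in limma was under 0.05 for 1 of 9 (Il34, 11.1%, against 19.7%). The authors' deposited table called 3 of 9, 2 higher and 1 lower (33.3%, against 15.6%), and groups did not overlap in 4 of 9 (44.4%, against 24.7%). The highest was Mif, at 443 ± 52.6 FPKM in controls against 370 ± 17.6 FPKM in knockouts (adjusted p = 0.256), and Il11, a further ligand of Il6st receptors, had 5.49 to 12.2 FPKM in controls against 6.59 to 12.5 FPKM in knockouts. The NF-kB list of factors, regulators and targets had 22 tested genes, 0 calls and a median log2 fold change of 0.07. It had 1 unadjusted p under 0.05 in limma (Ikbkg, 4.55%, against 19.7%) and 1 call in the authors' deposited table (Ptgs2, 4.55%, against 15.6%). Groups did not overlap in 3 of the 22 genes of this list (13.6%, against 24.7%). Its most abundant member Vcam1, an adhesion molecule, had 31.1 ± 9.58 and 34.1 ± 9.46 FPKM, and the subunit gene Rela had 26.1 ± 3.96 and 28.0 ± 7.88 FPKM (SD, n = 3; adjusted p = 0.844 and 0.906 in limma). Ikbkg, the scaffold subunit of the kinase that activates NF-kB, had 18.6, 22.2 and 22.1 FPKM in controls against 25.0, 27.7 and 31.8 FPKM in knockouts, without overlap (log2 fold change 0.41, SE 0.125, adjusted p = 0.132). The survival gene Bcl2l1 had 29.2 ± 4.99 and 34.7 ± 7.59 FPKM (adjusted p = 0.581).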

How the data were processed

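Per the labels' protocols, poly(A) RNA was selected and strand-specific libraries were made. Per the submitters' processing notes, reads went through FastQC, cutadapt and STAR (mm10) and then Cuffdiff; neither versions nor the annotation or strand setting is given in the sources used here. The authors deposited FPKM per library as Cuffdiff scales them, and q-values of their own comparison, a p-value adjusted by Cuffdiff, per the file headers. Their fold changes were not used. The depth per library is unknown, since no more than 22.2% of genes with a mean under 0.1 FPKM had a common ratio between 2 libraries (tolerance 0.03 in log2), and precision comes from replicate spread alone. Summed FPKM lay between 697886 and 746973 for Ctrl and between 599738 and 675095 for Med23KO. Of 12368 rows with an Ensembl identifier alone, 12316 matched a symbol of GENCODE vM21 (mm10). In 27 rows a date stood in place of a symbol.

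A gene was tested where its mean over the 6 libraries reached 1 FPKM, with limma 3.58.1 (R 4.3.3) on log2(FPKM + 1). The model held genotype alone and a mean-variance trend, and two-sided p-values were adjusted by Benjamini-Hochberg (threshold 0.05). The script was tested on simulated data. The members and gene lists were chosen with earlier results of these data known. Named were Med23, the members, called genes of the receptor, ligand, NF-kB and JAK-STAT lists and the 4 most abundant of the rest in each list. Further receptor genes, chemokines of the 2 clusters, Ccl5, Il34, Stat3, Stat5a, Cebpd, Il11ra1, Ptgs2 and cell type markers were named after their values were seen. The rule would also name genes most like a called member, and there was none. The alternatives were no filter or one of 5 FPKM, a pseudocount of 0.1 or 0.5, median scaling, quantile normalization, no mean-variance trend, library weights, a replicate block, leaving out each library, and the authors' q-values.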

Additional observations from a re-analysis of the deposited data

How the results depend on the processing

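The number of chemokine and cytokine genes called higher was 0 in the main test, 1 with quantile normalization or median scaling, 3 with library weights, 3 with the replicate block and 2 by the authors' q-values, and 0 to 1 with 1 library left out. The number called lower was 0, and 1 (Csf1) with the block. Of 125 member values recomputed, 112 kept their direction and side of the threshold, 12 passed it and 1 changed sign (Lif). The 112 include 1 value each of Il6 and Il33, which had no p-value in the main test to compare with.

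Same-numbered libraries deviated together for numbers 1 and 3 (correlation over genes 0.437 and 0.563) but not for number 2 (-0.0158), and no label says that a number marks a shared animal or day, so the pairing is not established. Under the replicate block the adjusted p was 0.0026 for Ccl2, 0.0151 for Tslp, 0.049 for Cxcl5 and 0.016 for Csf1. Of the named genes of other lists that were followed by setting, some passed under the block and not in the main test. They were Il1rl1 (0.00173), Ikbkg (0.00937), Il6st (0.0175), Ccl5 (0.0213), Mif (0.0289), Stat3 (0.0404), Bcl2l1 (0.0424), Il34 (0.0448), Cxcr4 (0.0486) and Ctf1 (0.0488). Cebpd, Stat5a, Il11ra1 and Ptgs2 were not followed by setting.

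Over all genes, 184 were higher and 175 lower. The counts were 73 and 84 without a filter on low values, 850 and 850 with library weights, 1180 and 1577 with the block, 1130 and 924 by the authors' q-values over all their rows, and 3 to 754 and 10 to 400 with 1 library left out (fewest without Med23KO replicate 2, most without Med23KO replicate 3). Leaving out any of the 6 libraries moved both counts by over 1.5 times. Quantile normalization gave 298 higher and 201 lower, and median scaling 363 and 205. Among receptor, other ligand, NF-kB and JAK-STAT genes, 1 was higher and 1 lower. These were 0 and 0 without a filter, 1 and 0 with median scaling, 5 and 1 with library weights, 13 and 4 with the block, 10 and 3 by the authors' q-values, and 0 to 6 and 0 to 1 with 1 library left out. The cause of these shifts was not tested.

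With 1 library left out, log2 fold changes near 0 changed sign: they ran from -0.31 to 0.0041 for Lif, -0.17 to 0.51 for Crlf2, -0.54 to 0.22 for Pf4, -0.038 to 0.36 for Vcam1, -0.10 to 0.30 for Rela, -0.10 to 0.54 for Cebpb, -0.55 to 0.36 for Cxcl14, -0.11 to 0.47 for Ccl27a, -0.31 to 0.20 for Il11 and -0.0593 to 0.0196 for Socs2. Socs2 was also above 0 with quantile normalization (0.011), median scaling (0.0052) and library weights (0.047). Cxcl1, Cxcl5, Lif and Tslp had no value at a filter of 5 FPKM. With depth unknown and a mean below 1 FPKM, Il6 and Il33 had a test only without a filter.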
